A study of Bos taurus and Ovis aries and Capra hircus with 18 samples.

Results

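Muscle of adult sheep (Ovis aries) was compared with muscle of adult goat (Capra hircus) in 6 RNA sequencing libraries, 3 of sheep muscle and 3 of goat muscle, each set lettered A, B and C. They were chosen by their titles from 18 libraries of brain and muscle from cattle, sheep and goat. As far as the labels go, the groups differ only in species: both are adult muscle with no treatment, genotype or breed named. The muscle sampled is not given in the sources used here. The text on extraction speaks of frozen brain for the muscle libraries as well, so the tissue was checked against marker genes. Nothing in the labels says that the letters stand for separate animals, so the p-values below measure only the spread between these libraries, which may be technical.

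Skeletal muscle is built of slow and fast fibres. Slow fibres contract steadily, carry their own forms of myosin, troponin, tropomyosin and calcium pump, and burn fatty acids in their mitochondria. Fast fibres contract quickly and draw on glycogen, glycolysis and the creatine phosphate store. Muscles of the same animal differ widely in their share of slow fibres, and the genes of both programs respond to use, feeding and hormones.

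Sheep muscle libraries held 43007347 to 46302643 counts and goat muscle libraries 23250777 to 25037038. Actin of skeletal muscle (ACTA1) was at 21999 or more in every muscle library and at 7.86 or less in every sheep or goat brain library, on the scale defined below. Of 15 neuronal markers, 10 were too low to test in muscle, and SNAP25, a synaptic protein, was at 0 to 0.303 in muscle against 263 to 1087 in brain. The markers of neurons summed to 55.2 to 113 in muscle, most of it CAMK2A, a kinase that muscle also makes, at 53.4 to 111; the other 14 were each at 2.95 or less. Goat muscle C stood apart from the other goat libraries. In it 21.8% of 9696 well expressed genes lay over 2-fold from the mean of the other two goat libraries, against 1.09% to 5.65% for the other 5 libraries. Its Spearman correlation with goat A and B averaged 0.926, against 0.988 between A and B and 0.985 among the sheep libraries. Between species the correlation ran from 0.826 to 0.882. Every list below was therefore also read without goat muscle C.

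The counts refer to separate gene models for sheep and goat, so genes were matched between the species from their exon lengths and their order along the chromosomes. The 16496 pairs comprised 10747 from a first pass resting on runs of exon lengths found in both species, and 4115 and 1634 from 2 later passes that filled gaps between them. Pairs of the last pass are the least certain and are marked below where their values are given. A level below is an RPKM computed here, the count divided by the length of the species' own gene model and by the library's total after scaling between libraries. A log2 difference is sheep minus goat, with its standard error after ±, and adjusted p-values are from edgeR's quasi-likelihood test with Benjamini-Hochberg adjustment over all genes tested. A gene was called at an adjusted p below 0.05 and a difference of at least 2-fold.

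Of 12561 gene pairs tested, 3520 (28%) were called, 1686 (13.4%) higher in sheep and 1834 (14.6%) higher in goat. In 6962 pairs (55.4%) all 3 libraries of one species lay beyond all 3 of the other. The length of the gene models moved with these calls. Where the goat model was over 2 times longer than the sheep model, the median difference was 0.75 and 41.4% of 1903 genes were called; where the sheep model was over 2 times longer, the median was -0.95 and 56.5% of 504 were called. Among the 5792 pairs whose models lay within 1.2 times of each other the median was -0.01, and 1188 (20.5%) were called, 484 (8.36%) higher in sheep and 704 (12.2%) higher in goat. The balance of these calls depended on the processing. With no length correction it was 642 higher in sheep and 543 in goat. A fit of the 12 sheep and goat libraries of both tissues gave 489 and 524 of 6612 tested. In every other setting tried, calls higher in goat were the more numerous. Without any length correction the medians of the outer classes turned round, to -0.70 and 0.60. Differences of gene pairs with unequal models therefore carry the length correction as well as the expression, and the length ratio is given below beside the values of each gene where it exceeds 1.2.

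**Figure D1:**
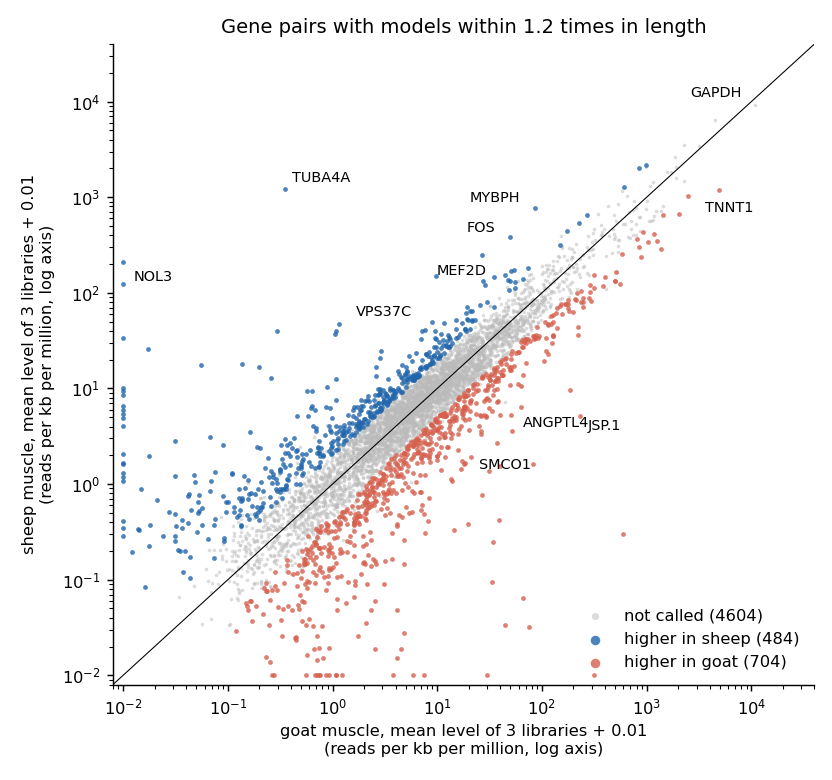
Mean level in sheep muscle against goat muscle for the 5792 tested pairs with models within 1.2 times in length (log axes, 0.01 added, each point a gene pair). Points above the line are higher in sheep; 484 were called higher in sheep and 704 higher in goat, and GAPDH lies near the line.

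Of the 10 genes of highest level among pairs of similar length, 2 were called, both higher in goat: TNNT1, the slow troponin T, at -2.07 ± 0.27, and the ribosomal protein RPL13A at -1.28 ± 0.27. GAPDH, a glycolytic enzyme, stood at 9993, 8802 and 9057 in sheep A, B and C and at 8239, 8407 and 16097 in goat A, B and C, with a difference of -0.23 ± 0.32. The fast myosin MYH1 stood at 9077, 5498 and 4532 in sheep and 3717, 3949.9 and 5701 in goat. ENO3, the muscle enolase, and TPI1, another enzyme of glycolysis, differed by 0.13 ± 0.24 and 0.09 ± 0.21. GAPDH, MYH1, ENO3 and TPI1 were not called, and their libraries overlapped between species. Neither were CASQ1, KLHL41, ATP2A1 and TMOD4 called, but all sheep libraries lay above all goat libraries for ATP2A1, the fast calcium pump, and below them for TMOD4, which caps the thin filament.

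The widest differences among pairs of similar length included genes with almost no goat counts. NOL3, an inhibitor of cell death that is abundant in muscle, was at 130.1, 122 and 116 in sheep and had 0 counts in goat, at least 2247-fold lower against a floor of 3 counts over the group (last-pass pair). TUBA4A, an alpha tubulin, was at 1135, 1262 and 1254 in sheep and 0.486, 0.47 and 0.0706 in goat. In goat, the exons of NOL3 and PIP4P1 overlapped those of another gene model over 100% of their length. Those of TUBA4A did so over 99.8% and those of TRMT2A over 90.2%. PIP4P1 also had 0 goat counts. Its pair joins sheep chromosome 5 to goat chromosome 10, while C3, CFD and CAST on sheep chromosome 5 pair with goat chromosome 7, so its partner is less certain. NOL3, PIP4P1, TUBA4A and TRMT2A were also low in goat brain, where TUBA4A was at 0 to 0.0756 against 158 to 327 in sheep brain. VBP1, a prefoldin subunit, was at 24.9 to 27 in sheep muscle and had 1 count in the goat libraries together, with no overlap of its exons, and it too was near 0 in goat brain. In genes whose exons overlap, 36.3% of 1185 were called, against 27.2% of 11376 others.

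Among genes with counts in both species, several were far apart. MYBPH, a myosin-binding protein of the thick filament, was at 1064, 547 and 723 in sheep and 125, 73.8 and 56.3 in goat, a difference of 3.20 ± 0.39 (adjusted p = 0.0011). KCNS3, a subunit that modifies voltage-gated potassium channels, was at 55.6, 34.3 and 21.1 in sheep and 1.37, 0.949 and 0.829 in goat (5.13 ± 0.43, last-pass pair). Every sheep library exceeded every goat library for both. In goat, the exons of MYBPH overlapped another gene model over 16.2% of their length. Its exon lengths are shared by 3 other sheep genes and 1 other goat gene, so reads may have been split between copies. ANGPTL4, which inhibits lipoprotein lipase and is induced by fatty acids and fasting, was at 2.01, 2.71 and 6.08 in sheep and 22.2, 56.1 and 76.5 in goat (-3.84 ± 0.59, adjusted p = 0.0025). PITX3, a homeobox factor of muscle and lens, was at 1.01, 1.51 and 1.72 in sheep and 15.5, 18.4 and 16.5 in goat. SMCO1, a membrane protein, was at 2.44 to 2.78 in sheep and 31 to 42.3 in goat. JSP.1, a class I antigen-presenting molecule, was at 2.09 to 9.51 in sheep and 151 to 331 in goat, and since 3 other goat genes share its exon lengths, reads may have been split between copies. In brain JSP.1 was also higher in goat, at 32.8 to 44.5 against 1.4 to 2.12 in sheep.

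The next 4 genes met the same conditions and were picked after their values were seen. C3 of the complement cascade was at 2.58, 4.49 and 3.02 in sheep and 26.9, 30.3 and 20.9 in goat. VPS37C, a subunit of the ESCRT-I sorting complex, was at 46.1, 43.4 and 60.7 in sheep and 10.4, 10 and 6.09 in goat (2.50 ± 0.27, adjusted p = 0.0007). MLXIP, a glucose-sensing transcription factor, was at 53.8 to 88.9 in sheep and 8.49 to 27.6 in goat. NOP56, a protein of ribosome assembly, was at 6.77 to 7.87 in sheep and 29.9 to 53.1 in goat.

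Of 15 slow-fibre genes tested, 6 were called higher in goat, 0 higher in sheep and 9 not called, against 14.6% and 13.4% of all genes tested. The median difference was -1.12 beside 0.03 over all genes tested. Without goat muscle C the calls were 8 higher in goat and 1 higher in sheep, the latter myoglobin (MB, ratio 2.32). TNNT1, the slow troponin T (sheep chromosome 14, 66959477 to 66971238; goat chromosome 18, 64034299 to 64044597, on builds not given in the sources used here), was at 935, 1430.4 and 1161 in sheep and 5474, 5432 and 3910.0 in goat. The difference was -2.07 ± 0.27 (adjusted p = 0.0013), and every goat library exceeded every sheep library. TNNC1, the troponin C of slow and cardiac muscle (length ratio 1.42), was at 911, 1394 and 1163 in sheep and 9339, 11047 and 5749.5 in goat, a difference of -2.91 ± 0.33. ANKRD2, a stretch-responsive protein of slow fibres (ratio 1.21), was at 16.7, 28.7 and 44.2 in sheep and 349.6, 209 and 114 in goat. TPM3, the slow tropomyosin (ratio 1.52), was at 333, 496 and 416 in sheep and 3121, 3282 and 921 in goat. None of these 4 genes overlapped between species, though goat C was the lowest goat library for each.

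For other slow-fibre genes goat muscle C lay among the sheep libraries or below them. The calcium pump ATP2A2 was at 214, 251 and 241 in sheep and 999, 1421 and 245 in goat, with a call at -1.92 ± 0.56 (adjusted p = 0.03) and, without goat C, at -2.37. The slow light chain MYL3 (ratio 1.58) was at 185 to 338 in sheep, 3081 and 2921 in goat A and B and 144 in goat C. The slow myosin heavy chain MYH7 was at 548, 704 and 639 in sheep and 1727, 1492 and 278 in goat; it was not called (-0.89 ± 0.58), and without goat C it was called at -1.36. MYH7 shares exon lengths with 7 other sheep genes and 6 other goat genes, so reads of myosin heavy chains may be split between copies. MYBPC1, slow myosin-binding protein C (ratio 1.29), was likewise called only without goat C, at -1.23 against -0.92 ± 0.36. Within the 6 members of similar length the 2 calls were TNNT1 and ATP2A2.

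Of 15 fast-fibre genes tested, 1 was called higher in sheep and 0 higher in goat, beside 13.4% and 14.6% of all genes. The median was -0.08, and the 7 of similar length had a median of 0.82. Without goat C 2 were called higher in sheep. Whether the fast list differed from the slow list was not tested. MYBPC2, fast myosin-binding protein C, was the member called, at 2102, 1943 and 2080.0 in sheep and 705, 685 and 1128 in goat (1.28 ± 0.27, adjusted p = 0.0083). ACTN3, the alpha-actinin of fast fibres, was at 2610.1, 1827 and 1816 in sheep and 799, 552 and 1634 in goat; it was not called (1.07 ± 0.41, adjusted p = 0.077) and was called at 1.61 without goat C. ATP2A1, the fast calcium pump, differed by 0.62 ± 0.22 and CASQ1, which stores calcium in fast fibres, by 0.12 ± 0.27, neither called. In goat C the troponin TNNC2 (ratio 1.47) reached 37564 and the light chain MYL11 (ratio 1.35) 51967, against 14989 to 16006 for TNNC2 and 17043 to 18029 for MYL11 in goat A and B, and neither was called between species. The summed level of the fast list was 71828 to 76642 in goat A and B, 182824 in goat C and 81839 to 98748 in sheep. In bulk tissue, fewer cells of a type and less RNA per cell cannot be told apart, which holds for fibre types here and for the cell markers below.

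**Figure D2:**
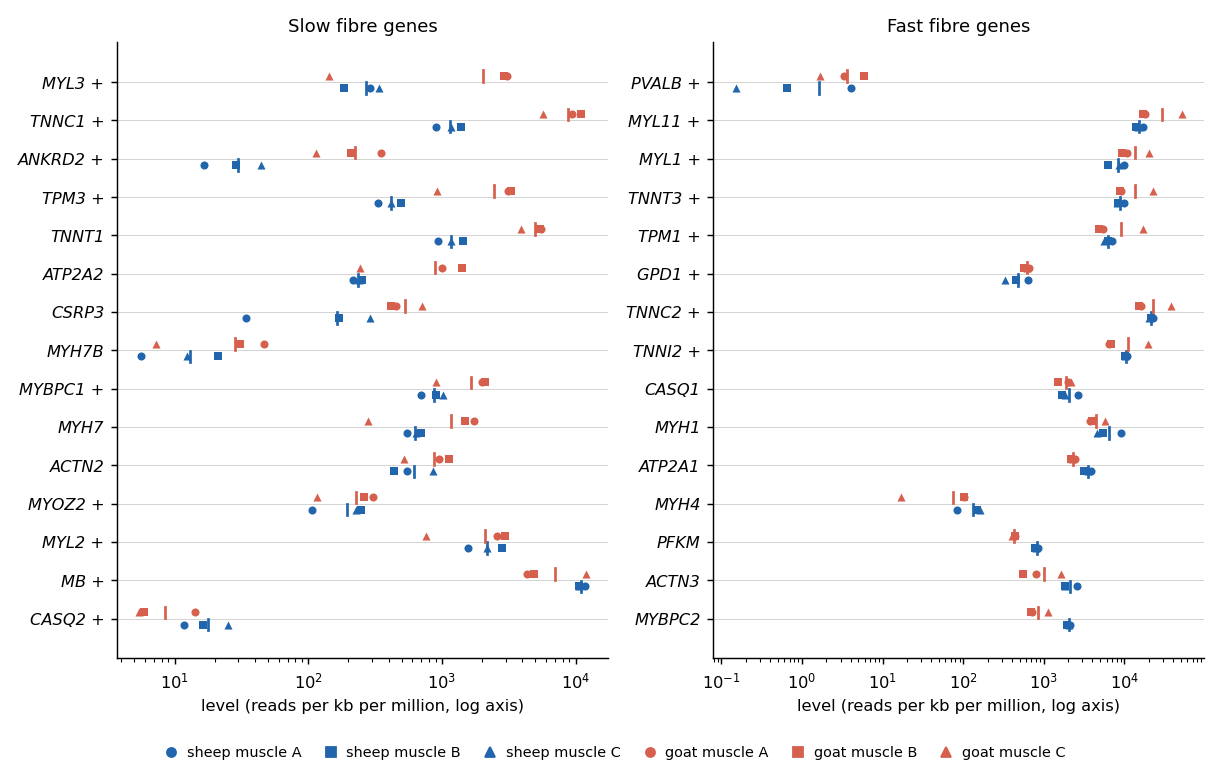
Level of slow-fibre genes (left) and fast-fibre genes (right) in each library (log axis); blue is sheep, red is goat, the marker shape is the letter, the bar is the mean of 3 libraries, and + marks a pair whose models differ over 1.2 times in length. Goat muscle C, the red triangle, lies apart from goat A and B for MYL3, ATP2A2 and MYH7 but not for TNNT1.

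Genes of the contractile lattice and the membrane are read here against the 13.4% of all genes called higher in sheep and the 14.6% called higher in goat. Of 18 sarcomere and Z-disc genes 4 were higher in sheep and 0 in goat: ACTA1, LDB3, DES and LMOD2. ACTA1 was at 63981, 55563 and 68643 in sheep and 29698, 21999 and 30393 in goat (adjusted p = 0.01, ratio 1.30). LDB3, a Z-disc organiser, was at 1328, 1162 and 1328 against 727, 564 and 539 (1.06 ± 0.23). Without goat C, LDB3 was just under 2-fold at 0.97, and the list gave 3 and 2 calls. Desmin, DES, was called higher in sheep at 1.10 ± 0.23, yet its models differ 3.58 times in length and without length correction its difference was -0.58. Of 15 genes of excitation-contraction coupling 2 were higher in sheep, JPH1, which tethers the membrane systems of the triad, at 196 to 209.7 against 61.3 to 104 (ratio 2.23), and the calcium channel subunit CACNG1 (ratio 3.04). The 9 members of that list with similar models gave 0 calls. Leaving out goat C gave that list 3 calls higher in sheep and 0 in goat. Of 12 genes of the dystrophin complex, the membrane protein CAV3 was higher in goat, at 114 to 254 against 65.3 to 95.5 (-1.14 ± 0.34, last-pass pair). CAV3 was under 2-fold without goat C (-0.71). SSPN was higher in sheep (2.05 ± 0.60, ratio 4.25), and leaving out goat C gave 2 calls higher in sheep and 0 in goat.

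At the neuromuscular junction, 2 of 9 genes were higher in sheep and 1 in goat, beside 28% called in either direction over all genes. CHRNE, the adult subunit of the acetylcholine receptor, was at 79.8, 122 and 182 in sheep and 8.22, 5.02 and 17.2 in goat (3.66 ± 0.52, ratio 1.98). LRP4, the receptor for agrin, was at 2.26 to 4.04 in sheep and 1.2 to 1.92 in goat, 1.03 ± 0.29, and 0.85 without goat C. ACHE, which breaks down acetylcholine, was higher in goat, at 3.23, 2.67 and 2.3 against 1.37, 0.777 and 0.934 (-1.41 ± 0.30). For all 3 genes the species did not overlap. Leaving out goat C gave this list 1 call higher in sheep and 1 in goat.

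Of 14 regulators of the muscle program and satellite cells, 5 were higher in sheep and 1 in goat, with a median of 0.83. The shares over all genes were 13.4% higher in sheep and 14.6% in goat. MEF2D, a transcription factor of differentiated muscle (sheep chromosome 1, 112598265 to 112610584; goat chromosome 3, 105762073 to 105774457), was at 156, 173 and 134 in sheep and 49.5, 57.1 and 27.6 in goat, a difference of 1.79 ± 0.29 (adjusted p = 0.0032). It was the 1 call among the 4 members of similar length. Leaving out goat C gave the list 4 calls higher in sheep and 1 in goat. MYOD1, a founding myogenic factor, was at 50.2, 37.2 and 13.9 in sheep and 8.57, 9.44 and 5.74 in goat (2.09 ± 0.45, ratio 2.98, last-pass pair) and was not called without goat C (adjusted p = 0.053). MYF6 was at 0.04 to 0.721 in sheep and 78.1 to 154 in goat, but this pair comes from the last pass and its partner is uncertain. Of 6 genes of embryonic or regenerating fibres, the developmental myosins MYH3 and MYH8 and the cardiac actin ACTC1 were higher in goat, and CD44 and vimentin (VIM), both with unequal models, higher in sheep. MYH8 was at 22.1, 1.02 and 17.4 in goat and 0.41 to 2.27 in sheep, so the groups overlapped, and without goat C it was not called (adjusted p = 0.14). The 6 genes then gave 2 calls higher in goat and 2 in sheep. ACTC1 (ratio 1.56) was at 11.1 to 20.3 in sheep, 337 and 458 in goat A and B, and 12.4 in goat C. MYH6, an atrial myosin, was at 0.15, 0.513 and 0.529 in sheep and 11.1, 10.5 and 3.02 in goat (-4.37 ± 0.66). It shares exon lengths with 7 other sheep genes and 2 other goat genes, so reads may be split between copies, as for MYH7. In goat its exons overlapped another gene model over 8.6% of their length. Of 10 cardiac markers 6 were paired, and MYH6 alone was expressed enough to test.

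Of 23 genes of fatty acid use, 9 were called higher in goat, 2 higher in sheep and 12 not called, with a median of -0.81; within the 10 of similar length 4 were higher in goat and 0 in sheep, against backgrounds of 12.2% and 8.36%. FABP3, which carries fatty acids inside muscle cells (ratio 1.97), was at 63.6, 109.6 and 180.5 in sheep and 773, 1745 and 1386 in goat, a difference of -3.46 ± 0.47 (adjusted p = 0.0015). ACADVL, which starts the oxidation of long chains, was at 77.3, 74.6 and 114 in sheep and 202, 329 and 204 in goat (-1.46 ± 0.29). HADHB and HADHA, the subunits of the trifunctional protein of the same pathway, differed by -1.62 ± 0.34 and -1.01 ± 0.28. Every goat library exceeded every sheep library for all 4 genes. PPARD, a nuclear receptor that turns these genes on, was higher in sheep at 1.41 ± 0.25 (ratio 2.63), and ACADS, which oxidises short chains, at 1.01 ± 0.20 (ratio 2.84); uncorrected for length, ACADS was at -0.33. Without goat C the counts were 9 and 3.

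The nuclear respiratory chain genes gave 6 calls higher in goat and 2 in sheep out of 20, beside 14.6% and 13.4% of all genes. All 8 had unequal models, and the 7 members of similar length gave 0 calls. Leaving out goat C also gave 6 and 2. Cytochrome c (CYCS, ratio 2.71, last-pass pair) was at 167 to 194 in sheep and 803 to 1220.3 in goat. COX7A2, a subunit of cytochrome oxidase (ratio 1.85), was at 15.8, 16 and 22.7 in sheep and 63.1, 118 and 103 in goat. NDUFB8 of complex I was called higher in sheep, at 1.27 ± 0.26, with a ratio of 5.56; uncorrected for length NDUFB8 was at -1.03.

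Calls among glycolytic genes came mostly from pairs with unequal models. Of 23 tested, 5 were called higher in sheep and 2 in goat (5 and 3 without goat C), beside 13.4% and 14.6% of all genes. Within the 12 of similar length the calls were 0 and 1. Those higher in sheep were ALDOA, PKM, PGAM2, PDHA1 and the lactate carrier SLC16A3, and those higher in goat HK2 and the glucose carrier SLC2A1. ALDOA, muscle aldolase, was at 18212, 14129 and 14193 in sheep and 2690.3, 2825 and 5338 in goat (2.10 ± 0.34), with models that differ 3.10 times in length. PKM, pyruvate kinase, was at 1428 to 1873 against 380.2 to 463 (1.94 ± 0.23, ratio 2.46). The member of largest difference, PDHA1 of the pyruvate dehydrogenase complex, was at 332 to 415 in sheep and 0.148 to 0.334 in goat, a last-pass pair with a ratio of 3.96 whose partner is uncertain. HK2, the hexokinase of insulin-responsive tissue, had similar models and was higher in goat, at 12.7, 14.5 and 7.13 against 6.39, 5.6 and 3.61 (-1.13 ± 0.33, adjusted p = 0.029). PFKM, which sets the pace of glycolysis, was at 779 to 851 in sheep and 399 to 441 in goat, below 2-fold at 0.94 ± 0.20.

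Of 12 glycogen genes 3 were higher in sheep and 0 in goat, beside 13.4% and 14.6% of all genes. Of these 3, 2 had similar models. Leaving out goat C gave 2 calls higher in sheep and 0 in goat. PPP1R27, a regulatory subunit of protein phosphatase 1, was at 2154, 2001 and 2435 in sheep and 724, 885 and 1362 in goat (1.15 ± 0.27, adjusted p = 0.014). GYS1, glycogen synthase of muscle, was at 337, 264 and 342 in sheep and 179, 191 and 74.2 in goat (1.09 ± 0.36) and was under 2-fold, at 0.76, without goat C. PYGM, which breaks glycogen down (ratio 1.82), was at 2766 to 3931 against 987 to 1108. Of 11 genes of creatine and purine energy buffering 5 were higher in sheep and 1 in goat, and of the 3 with similar models 0 and 1. Both pairs of counts were the same without goat C. CKM, the creatine kinase of muscle, was at 26373, 24445 and 27596 in sheep and 7875, 8252 and 8736 in goat (1.66 ± 0.23, ratio 2.98). GAMT, which makes creatine (ratio 1.36), was at 118 to 158 against 28.3 to 36.7. The brain form CKB, with similar models, was higher in goat, at 18.5, 11.8 and 14.8 against 3.92, 5.42 and 5.66 (-1.59 ± 0.26).

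Of 18 genes of lipid and sterol synthesis, 6 were called higher in sheep and 0 in goat, beside 13.4% and 14.6% of all genes. The median was 0.70, and 2 of the 9 with similar models were called. Leaving out goat C gave 5 and 0. INSIG1, a sterol sensor, was at 9.29, 7.57 and 5.54 in sheep and 2.42, 2.74 and 0.976 in goat (1.86 ± 0.40, adjusted p = 0.0094). FASN, fatty acid synthase (ratio 1.48), was at 7.67 to 14.9 against 2.97 to 3.91. Markers of fat cells were called in both directions. Of 10 adipocyte markers 5 were higher in sheep and 1 in goat, with or without goat C. Their summed level was 113 to 270 in sheep and 54.2 to 107 in goat. ADIPOQ, the hormone adiponectin (ratio 6.30, last pass), was at 31.5, 89.7 and 16.4 in sheep and 0.434, 0.769 and 0.146 in goat. PLIN1, which coats fat droplets (ratio 2.86), was at 8.29, 18.4 and 2.74 against 0.253, 0.181 and 0.201. Among the 4 markers with similar models the median was -0.04. Of these, CFD was higher in sheep (1.76 ± 0.30) and AQP7, a glycerol channel also found in muscle, higher in goat (-1.63 ± 0.40). The part of fat tissue in the lipid genes was not tested.

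Immediate early genes, which cells switch on within minutes of a stimulus, were mostly called higher in sheep. Of 21 tested, 16 were called higher in sheep, 1 higher in goat and 4 not called, with a median of 2.94. Within the 6 of similar length 4 were higher in sheep and 1 in goat. The shares over all genes were 13.4% in sheep and 14.6% in goat, and 8.36% and 12.2% with similar models. FOS (sheep chromosome 7, 90309364 to 90312786; goat chromosome 10, 16631746 to 16635227) was at 524, 431 and 189 in sheep and 25.4, 112 and 11.3 in goat, a difference of 2.94 ± 0.83 (adjusted p = 0.027). EGR2, a zinc finger factor of the same response, was at 8.74, 5.22 and 3.81 in sheep and 0.61, 0.938 and 0.479 in goat (3.12 ± 0.42, adjusted p = 0.0015). JUNB, a partner of FOS, was at 216, 166 and 136 in sheep and 31.5, 76.2 and 55.4 in goat. IER2, another gene of the set, was at 168, 109 and 87 against 21.8, 42.9 and 21.5. In each of these 4 genes all sheep libraries exceeded all goat libraries, and goat B was the highest goat library.

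Members with unequal models gave larger values. NR4A2, an orphan nuclear receptor (ratio 3.55), was at 51.7, 58.6 and 30.1 in sheep and 0.859, 2.19 and 0.801 in goat (5.19 ± 0.51). KLF4, a Krüppel-like factor (ratio 2.45), was at 38.1 to 48.9 against 2.31 to 3.81 (3.78 ± 0.25). ZFP36, which shortens the life of inflammatory messages (ratio 3.49, last pass), was at 193 to 367 against 17.8 to 30.9. FOSL1 went the other way, at 0.269, 0.336 and 0.807 in sheep and 1.74, 8.57 and 2.56 in goat (-3.19 ± 0.73), and FOSL2 did not differ beyond its error (0.06 ± 0.31). Without goat C the calls were 13 and 1; FOS, FOSB and EGR3 then missed the threshold, with FOS at 2.46 (adjusted p = 0.076).

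**Figure D3:**
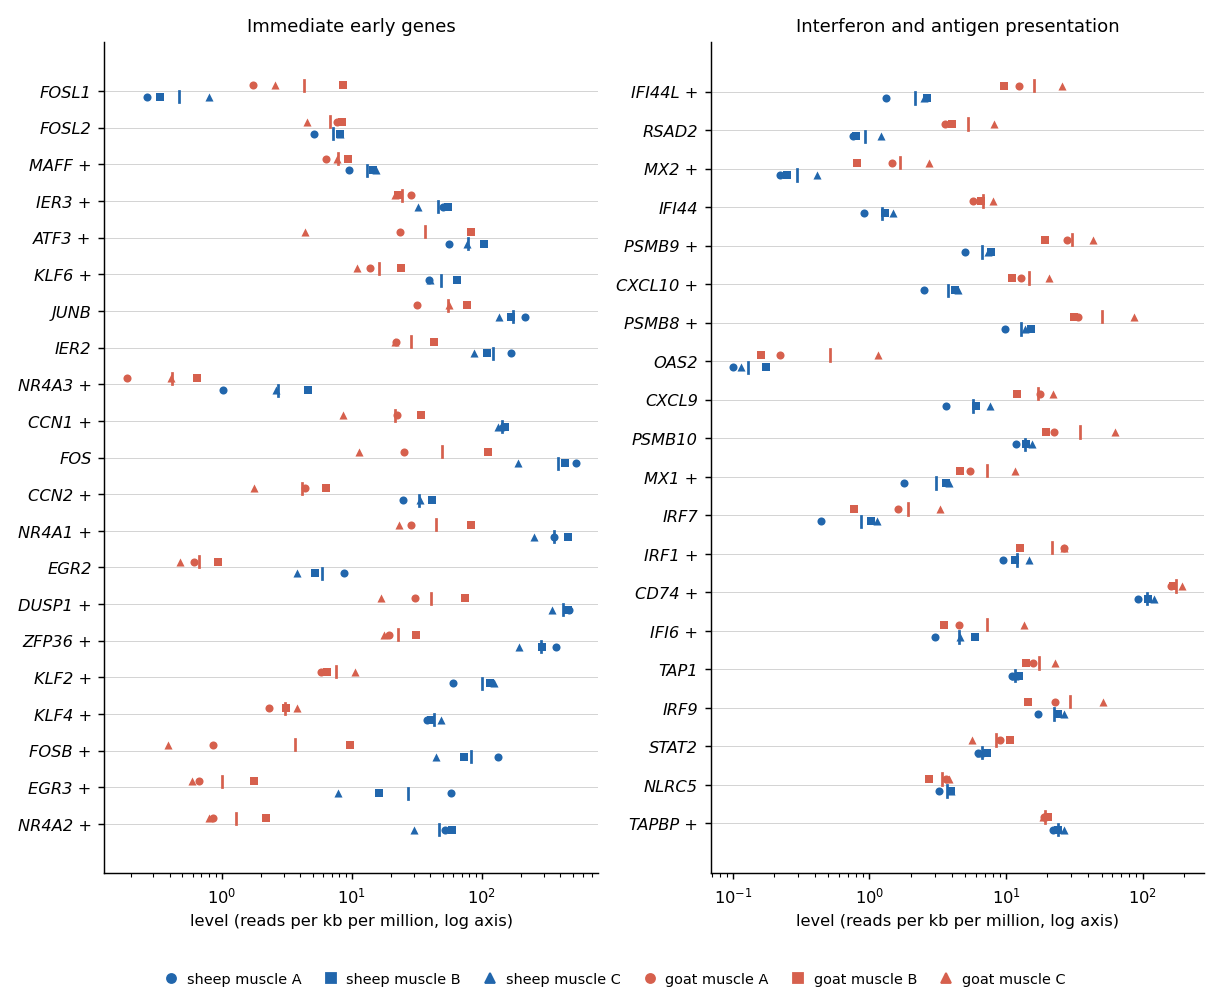
Level of immediate early genes (left) and of interferon and antigen presentation genes (right) in each library (log axis), for the members shown; blue is sheep, red is goat, the marker shape is the letter, the bar is the mean of 3 libraries, and + marks a pair whose models differ over 1.2 times in length. Sheep libraries lie to the right for most immediate early genes, with FOSL1 the exception, and goat libraries to the right for IFI44, RSAD2 and CXCL9.

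Of 21 heat shock and stress genes 1 was called higher in each species, beside 13.4% of all genes in sheep and 14.6% in goat. Without goat C, 3 were called higher in sheep and 1 in goat. HSPE1, a mitochondrial chaperonin (ratio 2.65), was at 132 to 166 in sheep and 751 to 979 in goat, and TRIB3, a pseudokinase of the stress response, was higher in sheep (1.41 ± 0.45) at levels of only 0.14 to 0.632, and not called without goat C (adjusted p = 0.072). HSPA8, the constitutive chaperone, differed by 0.14 ± 0.29. Of 15 clock genes PER2 and BHLHE40 were higher in sheep and CIART in goat, all with unequal models. Without goat C CIART lost its call, and the clock calls were 4 higher in sheep and 0 in goat. The clock genes with similar models gave 0 calls out of 3, and NR1D1, a repressor of the clock that swings widely over the day, was at 26.5 to 43.4 in sheep and 29.2 to 44.8 in goat. PER1, another clock gene, was at 9.32, 36.1 and 53.5 in sheep and 37.9, 21.8 and 38.5 in goat, so the sheep libraries spread more among themselves than from goat.

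Where ribosomal protein genes were called, they were higher in goat. Of 21 ribosomal protein genes 10 were called higher in goat and 0 in sheep, with a median of -0.97. Of 13 with similar models the calls were 4 and 0. The shares higher in goat were 14.6% over all genes and 12.2% with similar models. RPS18 was at 455, 402 and 389 in sheep and 968, 1031 and 1535 in goat (adjusted p = 0.0027). RPL13A, among the most abundant genes of similar length, was at 1103, 1070.0 and 882 in sheep and 1947, 2121 and 3346 in goat (-1.28 ± 0.27). RPS2 and RPLP0 did not differ beyond their errors, at 0.22 ± 0.21 and 0.00 ± 0.20. Without length correction 5 of the 21 were called higher in goat. Without goat C 7 were called. In goat C genes under 1 kb were higher by a median of 0.30 than in goat A and B, and the part of gene length in the ribosomal calls was not tested.

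Of 24 proteasome genes 7 were higher in goat and 0 in sheep, beside 14.6% and 13.4% of all genes, with a median of -0.51. PSMA4, a subunit of the core ring, was at 32.7, 34.4 and 34.4 in sheep and 96.7, 109.7 and 122 in goat (-1.69 ± 0.17, adjusted p = 0.00049). PSMA3 of the same ring was at 61.3 to 64.9 in sheep and 149 to 279 in goat. Without goat C the proteasome gave 3 calls higher in goat and 2 higher in sheep, and PSMB3, PSMB4, PSMC1 and PSMC3 lost their calls.

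Growth and wasting genes were called in both directions, beside 13.4% of all genes called higher in sheep and 14.6% in goat. Of 21 growth control genes IGFBP3 was higher in sheep and AKT1 and EIF4EBP1 higher in goat, and myostatin (MSTN, ratio 2.57, last-pass pair), which restrains muscle growth, was at 14.3, 9.97 and 2.41 in sheep and 20.7, 13.9 and 8.39 in goat, with no call. AKT1, the kinase downstream of insulin and IGF1, was higher in goat at 34 to 53.1 against 19.2 to 20.7 (-1.06 ± 0.21), and under 2-fold, at -0.85, without goat C. The growth control genes then gave 1 call higher in sheep and 1 in goat. Of 17 atrophy genes 2 were higher in sheep and 5 in goat, and 2 and 4 without goat C. FBXO32, a ubiquitin ligase of wasting muscle (ratio over 1.2), was at 51.2, 97.3 and 189 in sheep and 14.8, 23.3 and 12.2 in goat (2.74 ± 0.49). TRIM63, the other well known ligase, had equal models and was at 79.4, 133 and 209 in sheep and 95.3, 98.2 and 198 in goat (0.10 ± 0.42). Of 13 calpain, calpastatin and cathepsin genes, which take part in the tenderising of meat, 2 were higher in each species. Their calls without goat C were 2 higher in sheep and 1 in goat. Calpastatin (CAST) was at 29.3 to 44 in sheep and 28 to 57.4 in goat with no call.

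Of 21 interferon and antigen presentation genes, 9 were called higher in goat, 0 higher in sheep and 12 not called, with a median of -1.23. Of the 11 with similar models 4 were called higher in goat and 0 in sheep. Over all genes 14.6% were called higher in goat, and 12.2% of those with similar models. IFI44 was at 0.906, 1.3 and 1.5 in sheep and 5.7, 6.57 and 8.07 in goat (-2.46 ± 0.28, adjusted p = 0.00083). RSAD2, an antiviral enzyme (last-pass pair), was at 0.752, 0.803 and 1.21 in sheep and 3.56, 4.05 and 8.22 in goat, and the chemokine CXCL9 at 3.62, 6.03 and 7.65 against 17.6, 11.9 and 21.9. Without goat C 8 were called higher in goat. Lymphocyte markers summed to 20.6 to 28.8 in sheep and 28.4 to 43.1 in goat, with 4 of 14 called higher in goat and 1 in sheep, also without goat C. Of these 14, 12 had models over 1.2 times apart, and of the 2 with similar models 1 was called, higher in goat. Macrophage markers summed to 32.5 to 47.1 in sheep and to 54.4, 47.1 and 86.5 in goat A, B and C. Of 9 tested, 2 were higher in goat and 0 in sheep, and the 4 with similar models gave 0 calls. With goat C left out, 1 macrophage marker was called higher in each species. CD3E of T cells (ratio 2.13) was at 3.03 to 4.08 in sheep and 6.24 to 10.9 in goat, and without length correction its difference was 0.011. The part of such cells in the interferon genes was not tested.

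**Figure D4:**
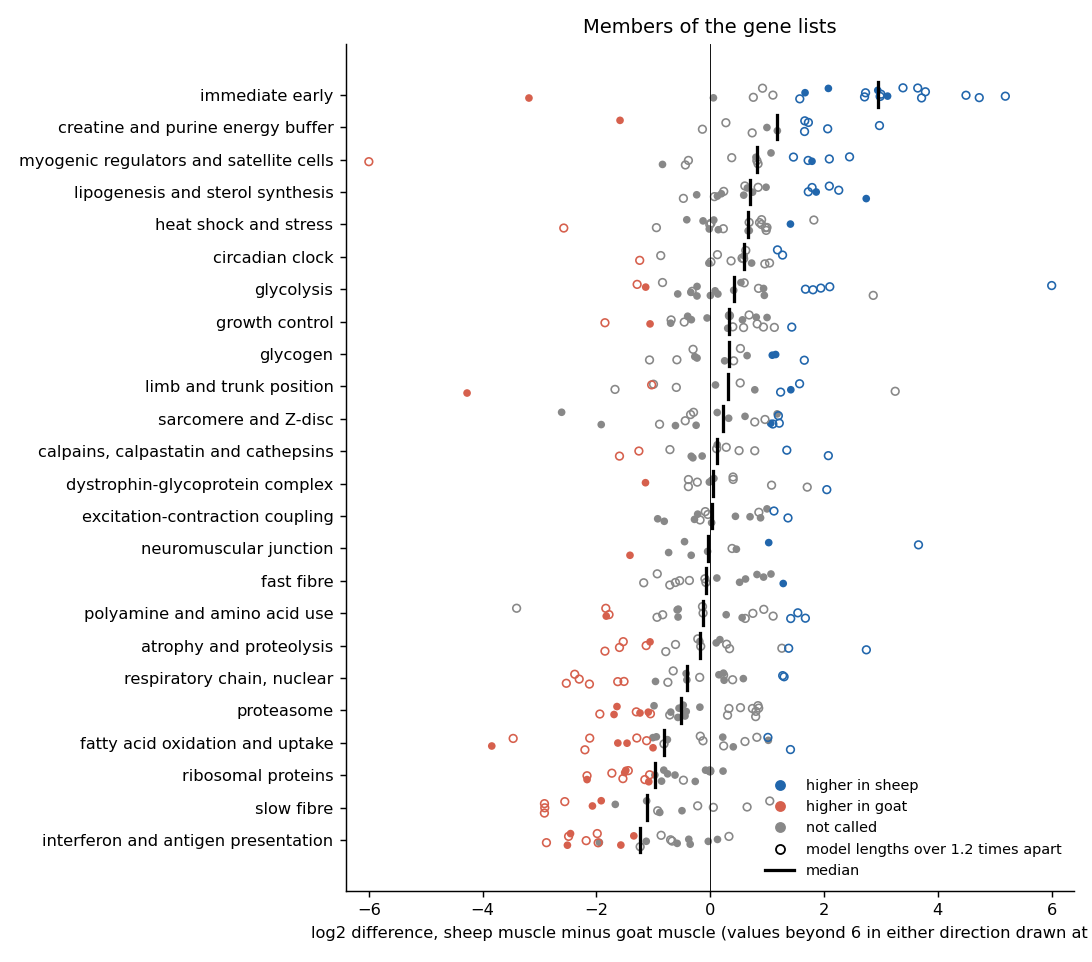
Log2 difference of each tested member of the pathway lists with 9 or more members, sheep minus goat; blue and red points were called higher in sheep and goat, open points have models over 1.2 times apart in length, and the bar is the list's median. The medians run from -1.23 for interferon genes to 2.94 for immediate early genes, and called genes stand on both sides in most lists.

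Genes that mark position along the body gave 3 calls higher in sheep and 2 in goat out of 12 tested. Over all genes the shares were 13.4% and 14.6%. Of this list 39 were listed and 17 paired. Without goat C the calls were 4 and 4. Those higher in sheep were HOXD9, MEIS1 and TBX18, and TBX1 was among those higher in goat. HOXD9 was at 44.2, 33.5 and 26.4 in sheep and 9.28, 9.07 and 20.7 in goat (1.42 ± 0.37, last pass). TBX1, a factor of muscles of the head and neck, was at 0.176, 0.368 and 0.203 in sheep, 6.4 and 8.07 in goat A and B and 0.0771 in goat C. Goat C therefore differed from goat A and B in TBX1, and whether the libraries came from the same anatomical muscle was not tested.

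Markers of other cells in muscle were measured to describe the tissue. Their counts are read beside the 13.4% of all genes called higher in sheep and the 14.6% in goat. Fibroblast and matrix markers summed to 751 to 996 in sheep and 420 to 505 in goat. Of 19 tested, 5 were higher in sheep and 0 in goat, and 4 and 0 without goat C. The 10 with similar models gave 0 calls, with COL1A1, the main collagen, at 24.7 to 43.6 in sheep and 16.7 to 27 in goat. Smooth muscle and pericyte markers gave 4 of 13 higher in sheep and 0 in goat, also without goat C, among them MCAM at 25.9 to 33.9 against 8.84 to 14.5 (1.34 ± 0.24). Endothelial markers summed to 415 to 501 in sheep, 255 to 293 in goat A and B and 541 in goat C. Of 13 tested, 3 were called higher in sheep and 1 in goat, with a median of 0.35, and 5 and 2 without goat C. The 3 higher in sheep, EMCN, ESAM and ROBO4, had unequal models, and without length correction EMCN was at -0.18. PECAM1 of endothelium was at 68 to 71.3 in sheep, 38.8 and 51.4 in goat A and B, and 101 in goat C, while the junction protein CLDN5, with equal models, was higher in all goat libraries (-1.68 ± 0.43). Schwann cell and nerve markers summed to 69.6 to 100.1 in sheep and 115 to 165 in goat. Of 10 tested 3 were called higher in goat and 1 in sheep (2 and 1 without goat C), with a median of -0.62. The 3 higher in goat, MAL, MBP and S100B, had unequal models, and without length correction MBP and S100B changed sign (0.68 and 0.23). The 1 higher in sheep, NGFR, a receptor of Schwann cells with similar models, was at 1.13 to 3.46 in sheep and 0.262 to 0.513 in goat (2.35 ± 0.54).

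The brain libraries of the same species show which differences muscle shares with another tissue. Of the 3520 genes called in muscle, 1078 (30.6%) were called in brain with the same sign, and of the 1188 with similar models 201 (16.9%). Over all genes tested in muscle 15.2% were called in brain in either direction, and 7.54% of those with similar models. Of the 1188, 869 concerned genes expressed in both brains at a CPM (library-scaled count) of 1 or more; 91 of these (10.5%) were called in brain with the same sign, 10 with the opposite sign and 768 not called, beside 4.91% called in brain over all 5012 genes chosen by the same length and level. The difference in muscle minus that in brain was tested as an interaction over 12 libraries: 453 of 14194 genes (3.19%) were called. NME7, a kinase of cilia, was far higher in goat in both tissues, at 51.2 to 141 against 1.57 to 1.66 in muscle and 127 to 303 against 2.09 to 2.65 in brain, with an interaction of 0.84 ± 0.59. RCCD1, ACOT9 and JSP.1 were also higher in goat in both. Such shared differences cannot be told apart from a difference of gene model that affects both tissues.

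Other differences were larger in muscle. MYBPH, 3.20 in muscle, was at 31.6 to 59.6 in sheep brain and 25.2 to 34.6 in goat brain, and its interaction was 2.70 ± 0.53 (adjusted p = 0.021). KCNS3 had an interaction of 4.28 ± 0.55 (adjusted p = 0.0015). SH3RF2, a ubiquitin ligase, was at 9.92, 11.1 and 8.47 in sheep muscle and 3.02, 2.54 and 2.62 in goat muscle, while goat brain, at 1.15 to 3.09, overlapped sheep brain at 0.859 to 1.29 (2.80 ± 0.52, adjusted p = 0.017). ADGRB1, an adhesion receptor with a role in myoblast fusion, was at 1.77 to 3.43 in sheep muscle and 0.15 to 0.257 in goat muscle, with an interaction of 2.69 ± 0.56. GREB1, a gene induced by oestrogen in other tissues, was at 0.916, 0.762 and 2.66 in sheep muscle and 0.182 to 0.261 in goat muscle (interaction 3.64 ± 0.85).

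On the goat side, ANGPTL4 was at 3.17 to 8.05 in sheep brain and 2.97 to 5.65 in goat brain, and its interaction was -4.17 ± 0.78 (adjusted p = 0.017). MYH6, whose exon lengths other genes share, had -4.53 ± 0.99. HYPK, a regulator of the acetylation of new proteins, was at 72 to 97.2 in sheep muscle and 188 to 470.2 in goat muscle, with an interaction of -3.00 ± 0.69. ZNF385A was at 2.2 to 3.98 in sheep muscle and 27, 15.5 and 4.69 in goat muscle (-2.97 ± 0.70). CXHXorf38, a gene of unknown role, was at 1.41 to 2.13 in sheep muscle and 16.7 to 17.9 in goat muscle, against 2.75 to 4.44 and 3.45 to 5.64 in brain (-2.92 ± 0.46, adjusted p = 0.0063). Since each interaction uses the muscle libraries again, it adds the comparison with brain and is no second measure of the muscle difference. The count of 453 depended on single libraries: it was 903 without sheep brain C, 144 to 187 without a sheep muscle library, 160 to 222 without a goat brain library, 216 and 248 without goat muscle A and B, and 320 to 450 without each of the others.

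**Figure D5:**
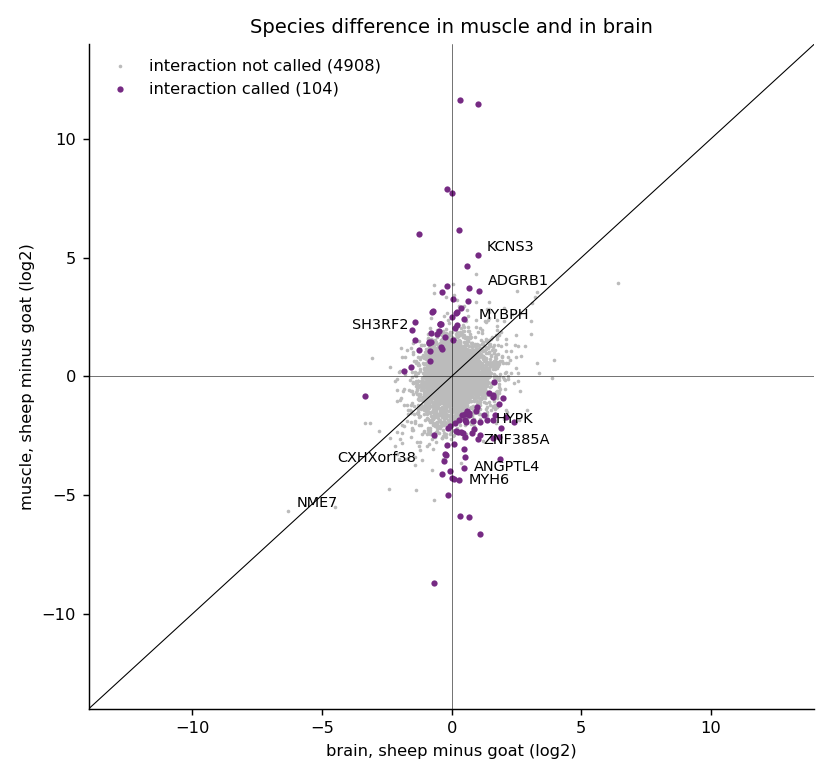
Species difference in muscle (vertical) against brain (horizontal), log2 sheep minus goat, for 5012 gene pairs with similar models and a CPM of at least 1 in both brains; purple marks the 104 with a called interaction. NME7 lies near the diagonal, and KCNS3, MYBPH, MYH6 and ANGPTL4 lie far from it, toward the vertical axis.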

How the data were processed

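Muscle of sheep and goat was measured by RNA sequencing of oligo(dT)-selected RNA, per the labels' protocols. The deposited values are raw read counts per gene with a Length column; the submitters' processing notes name Trimmomatic 0.39, STAR 2.7.6 and featureCounts. The sheep and goat genome builds were not given in the sources used here.

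Gene pairs, the members and the lists were chosen with earlier results of these data known. Pairs came from exon lengths and gene order. When 1074 first-pass pairs were withheld, 99.62% of the 1048 found again by the second pass had the same partner. Withheld genes share runs of exon lengths, so this does not measure the accuracy of pairs found only in the later passes. With its search window moved by 60 genes the second pass still gave 361 pairs. Of tested genes from the first, second and last pass, 23.8%, 36.3% and 45% were called. Symbols (13239 pairs) came from overlap with cattle RefSeq genes. Counts were tested with edgeR 4.0.16 (quasi-likelihood, robust; R 4.3.3) with gene length as an offset, TMM scaling and the tool's low-count filter. The count test was checked on simulated data. Brain libraries entered only the fits over the 12 sheep and goat libraries. Cattle libraries were not used here.

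Genes named were, per direction, among the 14 of largest difference with a model length ratio of at most 1.2, at least 3 as log2 CPM in whichever species was higher, species that did not overlap and a call kept without goat muscle C; list members of lowest adjusted p or against the list's median; the 10 of highest level; and the 5 of largest interaction per direction. Other list members are named where a count of 5 or fewer is given or a call is lost, after their values were seen. Alternatives were DESeq2 1.42.0, limma-voom (limma 3.58.1), other scalings, filters and pairings, a replicate block and leaving out each library. Some genes are not reported here.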

Additional observations from a re-analysis of the deposited data

Results flagged for a closer look

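In 29 of the 155 genes named, the difference between sheep and goat in muscle departed from that in brain by the interaction test (edgeR's quasi-likelihood test, Benjamini-Hochberg adjustment, 12 libraries). Over all genes the share was 3.19% of 14194. Many of the 155 were named for a large interaction or a large muscle difference, so their share says nothing beyond that choice. Leaving out goat brain A, B or C took the call from 18, 15 and 15 of the 29, and sheep brain A, B or C from 7, 5 and 0. The values here are the muscle difference minus the brain difference in log2, and positive values mean relatively higher in sheep muscle. Among fibre and junction genes they were 2.70 for MYBPH, -4.53 for MYH6, -6.37 for ACTC1, 2.03 for LDB3 and 5.47 for CHRNE. Among genes of energy and lipid use they were 2.60 for PGAM2, 7.93 for PDHA1, -4.17 for ANGPTL4, -2.27 for ACADVL and -1.83 for COX7A2. The immediate early genes KLF4, NR4A2 and EGR3 had 2.41, 4.91 and 4.60. Cell markers gave 6.23 for ADIPOQ, 4.88 for PLIN1, -4.02 for AQP7, -2.20 for KRT10 and -4.87 for SNAP25, whose muscle level was close to 0 in both species. The remaining genes were KCNS3 at 4.28, ADGRB1 at 2.69, GREB1 at 3.64, SH3RF2 at 2.80, VPS37C at 2.63, DNAH11 at -3.00, CXHXorf38 at -2.92, HYPK at -3.00, ZNF385A at -2.97, EPHX2 at -2.56 and TP53RK at -1.61. PDHA1, PGAM2, ADIPOQ and KCNS3 are last-pass pairs, and their partners are less certain.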

How the results depend on the processing

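The 3520 calls became 1129 when only genes with models within 1.2 times were fitted and 2119 with first-pass pairs only, both of which test fewer genes; leaving out each library gave 2741 to 3834. With only similar models fitted, 510 of 5792 genes were called higher in sheep and 619 in goat. List counts in this paragraph cover only the leading direction of each list. Out of the members with similar models, this fit called 2 of 6 slow fibre, 4 of 6 immediate early, 3 of 10 fatty acid and 3 of 11 interferon genes. It also called 4 of 13 ribosomal, 2 of 9 lipid synthesis, 4 of 12 proteasome and 1 of 4 adipocyte genes. First-pass pairs alone gave 3 for slow fibre, 9 for immediate early, 5 for interferon and 3 for adipocyte genes. Over all 8959 genes of that fit 1032 were called higher in sheep and 1087 in goat. Without overlapped genes and copies, an alternative chosen after seeing the data, slow fibre gave 3 and fatty acid genes 5. That fit called 1238 of 9901 genes higher in sheep and 1411 in goat. Both of these fits leave out list members, so their list counts are not losses of calls alone. Without length correction 3172 of 12539 genes were called, and only 1975 of the 3520 calls were kept. Ribosomal genes then gave 5 and lipid synthesis 3, and 13 of the named genes changed sign: DES -0.58, CACNG1 -0.32, ACADS -0.33, NDUFB8 -1.03, PER2 -0.13, BHLHE40 -0.17, MEIS1 -0.051, LMOD2 -0.000517, CAMK2A -1.27, CD3E 0.011, EMCN -0.18, MBP 0.68 and S100B 0.23. Proteasome calls ranged from 3 to 8 over the libraries left out. Interaction calls ranged from 144 to 903 over the libraries left out, also chosen after seeing the data, against 453; library totals alone gave 684, of which 137 were relatively higher in sheep muscle and 547 in goat muscle against 169 and 284, with a median of -0.17 against 0.02. Apart from what the length correction or the set of genes tested sets, the cause was not tested.

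Deviations of same-lettered sheep and goat muscle libraries from their group means correlated at 0.012, -0.079 and -0.022 for A, B and C. These correlations cannot show whether a letter marks a shared batch, which was not tested. With a replicate block 3358 genes were called, and 334 interactions.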
